A study of Mus musculus with 32 samples.

Results

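The genes described here cover the entry of glucose into muscle fibres and the family of the thioredoxin-interacting protein Txnip, which restrains that entry. They number 10 of the 33397 genes in the expression table and were taken by symbol: the glucose transporters Slc2a4, Slc2a1 and Slc2a3, the Rab GTPase-activating proteins Tbc1d1 and Tbc1d4, the alpha-arrestins Txnip, Arrdc2, Arrdc3 and Arrdc4, and the transcription factor Mlxip. Txnip was selected on its own FPKM values here, being chosen by their fall after denervation, so its values are a description with no test. Bulk RNA was sequenced from gastrocnemius (GAS) muscles of C57BL/6 mice (C57BL/6J in the methods of the study) at 0, 1, 3, 5, 7, 14, 21 and 28 d after sciatic nerve transection, with 4 samples at each time and 32 in all. The methods also give male sex, an age of 6 to 8 weeks, excision of nerve on the left side, and a sham operation without transection for controls. The labels give transection as the treatment of all 8 groups, the 0 d group included, and 0 d is used here as the nondenervated group. No genotype other than the strain is given, and the labels do not tie samples to animals, so p-values measure the spread between samples.

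Muscle takes up glucose mainly through GLUT4, the product of Slc2a4, which waits in vesicles inside the fibre and moves to the surface after insulin or contraction. Tbc1d1 and Tbc1d4 hold these vesicles back by switching off Rab proteins until they are phosphorylated by Akt or the energy sensor AMPK. Txnip and Arrdc4 promote internalisation of glucose transporters, Txnip also binds thioredoxin, and transcription of both genes is known to be driven by Mlxip (MondoA) when glucose phosphates accumulate.

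Levels are given as FPKM, the fragments of a gene scaled to its length and to the size of the library, as deposited. A gene was called changed where limma on log2(FPKM + 1) over all 22071 genes tested gave a Benjamini-Hochberg adjusted p under 0.05 and a change of at least 1.5-fold, which is 0.585 on the log2 scale. All fold changes below are on that scale with the standard error (SE), and folds of low genes are understated by the added 1. All 10 genes passed the filter of FPKM 0.1 in 4 samples, in every one of the 32 samples. Recovered depth was 14199902 to 17561584 fragments per sample, and the genes were read by 25 (Arrdc2) to 11508 (Txnip) fragments in a sample.

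Some features of the libraries touched all results. Over 11943 genes whose FPKM averaged 1 or more, the median log2 change was above 0 against 0 d at each time, from 0.12 at 1 d to 0.32 at 14 d, while the mitochondrial share of fragments was 14.5% to 18.2% at 0 d and 6.70% to 12.0% from 5 d on. Scaling by median ratios moved that median to between -0.02 and 0.03 and the share of higher calls from 68.7% to 49.6% at 3 d and from 77.3% to 46.2% at 14 to 28 d. One library of the 3 d group stood apart on the first principal component, at -18.5 against 1.15 to 6.40 for the other 3. The labelled tissue was borne out by its markers, since 8 muscle fibre genes such as Acta1 and Ckm summed to 22202 to 45778 FPKM, whereas 6 retina genes, checked because the extraction label mentions retinas, summed to 0.0772 to 0.528.

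Cell type markers moved too, and in whole muscle fewer cells of a type cannot be told apart from less RNA per cell. The muscle fibre markers summed to 42005 to 45778 FPKM at 0 d and 22202 to 25991 at 3 d, and 6 of 8 were called lower at 3 d. The 9 macrophage and neutrophil markers summed to 115 to 165 at 0 d and 274 to 852 at 3 d, with 8 called higher. The 7 endothelial markers summed to 100.004 to 109.8 at 0 d and 61.7 to 85.8 at 3 d, with 3 called lower, and 5 of 7 Schwann and perineurial markers were called lower at 3 d. At 3 d 0 of 6 fibroblast and 0 of 5 erythroid markers were called and 2 of 6 adipocyte markers were lower, beside 13.2% of all genes called higher and 6.03% lower. At 14 to 28 d 4 fibroblast and 7 of 9 macrophage and neutrophil markers were called higher, and 5 of 8 muscle fibre markers and 1 endothelial marker lower, beside 14.5% of all genes higher and 4.27% lower. Of the 7 Schwann and perineurial markers 5 were called lower and 1 higher at those times, with a median log2 change of -1.72. After median-ratio scaling, which divides each sample by the median, over genes above 0 in every sample, of its ratio to the gene's geometric mean, 8 muscle fibre, 4 endothelial and 3 erythroid markers were called lower at 3 d. With that scaling 1 fibroblast marker was higher at 14 to 28 d, 7 macrophage and neutrophil markers were higher, and 6 muscle fibre and 5 endothelial markers were lower. So were 5 Schwann and perineurial markers. Of all 22071 genes tested, 4010 were called at 3 d with that scaling, 49.6% of them higher. At 14 to 28 d it was 3066 of 20243 genes, 46.2% of them higher. No marker of these lists was at 0 in all 4 samples of a group. The part of these shifts in the results below was not tested.

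Denervated GAS muscles held less Slc2a4 and Tbc1d4, more Tbc1d1 and Arrdc3, and, after a short early peak, less Arrdc2. At 14, 21 and 28 d together these 5 of the 9 tested genes were called against 0 d (Tbc1d1 and Arrdc3 higher, Slc2a4, Tbc1d4 and Arrdc2 lower), where 18.8% of the 20243 genes tested in that 16-sample fit were called, 14.5% higher and 4.27% lower. At single times 4 of 9 were called at 1 d (8.84% of all genes tested), 6 at 3 d (19.3%) and 5 at each of 5 d (18.8%), 7 d (19.5%), 14 d (18.5%), 21 d (15.7%) and 28 d (18.3%). By direction, 4 were higher at 1 d (6.34% of all genes; 2.49% were lower), 3 were higher (13.2%) and 3 lower (6.03%) at 3 d, and 3 were higher (14.9%) and 2 lower (3.86%) at 5 d. At 7, 14, 21 and 28 d 2 were higher (15.4%, 14.6%, 11.8% and 14.2% of all genes) and 3 lower (4.1%, 3.83%, 3.93% and 4.1%). Arrdc4 and Mlxip were called at none of the 7 times. At 1, 3, 5, 7, 14, 21 and 28 d the samples of 6, 7, 6, 5, 5, 6 and 7 of the 9 genes did not overlap with those of 0 d, against 28.5%, 35.3%, 44.8%, 40.9%, 44.9%, 42.9% and 45.7% of all genes tested. Without the 3 d library that stood apart, 6 genes were also called at 3 d, with log2 changes of -2.19 for Slc2a4, -0.68 for Slc2a3, 1.76 for Tbc1d1, -1.37 for Tbc1d4, 1.35 for Arrdc2 and 2.46 for Arrdc3. These comparisons share the 0 d samples, and their counts are not independent of each other.

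Slc2a4 (ENSMUSG00000018566, chromosome 11, 69942539 to 69948188 on the minus strand of GRCm38), which encodes the insulin-responsive transporter GLUT4, had the highest level of the transporters. Its FPKM was 139, 159, 164 and 154 in the 4 samples at 0 d and 110.2, 113, 98.0 and 108 at 1 d. At 3 d it was 49.8, 48.2, 25.7 and 28.7. Each of the 28 denervated samples lay below every 0 d sample, and the 3 d samples split into a pair near 49 and a pair under 30. The level was 66.5, 63.5, 68.8 and 69.9 at 5 d, 53.5, 62.5, 54.5 and 60.9 at 7 d and 52.5, 63.0, 65.7 and 61.9 at 14 d. It was 57.9, 57.1, 61.3 and 66.8 at 21 d and 52.1, 50.5, 47.7 and 56.8 at 28 d. From 5 d on the groups next to each other in the order of means overlapped, so no further order among them is given. The mean fell from 154 ± 10.9 (SD, n = 4) at 0 d to 38.1 ± 12.7 at 3 d, which is 24.8%, and was 33.6% of the 0 d mean at 28 d. The log2 change was -2.04 ± 0.13 (adjusted p = 2.45e-13) at 3 d and -1.40 ± 0.06 (adjusted p = 2.33e-11) at 14 to 28 d by limma, and -0.52 ± 0.13 (adjusted p = 0.00326) at 1 d, where it missed the 1.5-fold limit but passed it after median-ratio scaling (-0.70).

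Slc2a1 (ENSMUSG00000028645, chromosome 4, 119108711 to 119137983, plus strand) encodes GLUT1, a transporter that works without insulin. Its FPKM was 4.50, 5.10, 3.72 and 3.88 at 0 d and 11.4, 8.21, 6.74 and 14.4 at 1 d, and no 1 d sample overlapped with 0 d. It was 3.89, 8.22, 7.46 and 5.48 at 3 d, 8.41, 5.96, 7.71 and 9.28 at 5 d and 7.84, 5.76, 3.40 and 10.7 at 7 d. The 7 d samples spread widest after 1 d, with 1 below every 0 d sample and 3 above. At 14 d it was 4.27, 8.82, 5.86 and 9.34, at 21 d 4.77, 5.62, 5.15 and 5.58 and at 28 d 5.38, 5.82, 5.69 and 7.24. Over all times 24 of 28 denervated samples were above and 1 was below every 0 d sample. Slc2a1 rose at 1 d by 1.04 ± 0.24 (adjusted p = 0.00140) and at 5 d by 0.73 ± 0.24 (adjusted p = 0.0150), by limma, but the 5 d call was lost after median-ratio scaling (0.40, adjusted p = 0.137) and after quantile normalization (0.42). At 14 to 28 d its change was 0.41 ± 0.14 (adjusted p = 0.0179), under 1.5-fold, and 0.61 with values rescaled to TPM, which also gave calls at 7 d (0.73) and 14 d (0.81). The calls at 7 and 14 d turned on single libraries, since without the third 7 d library the change was 0.75 (adjusted p = 0.00893) in place of 0.50 (adjusted p = 0.0963), and without the first 14 d library it was 0.75 (adjusted p = 0.0156) in place of 0.56 (adjusted p = 0.0599). Exons of the antisense gene Gm12868 overlap it over 105 bases, and that gene held 0 to 6 fragments per sample.

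Slc2a3 (ENSMUSG00000003153, chromosome 6, 122727809 to 122801640, minus strand) encodes GLUT3, a high-affinity transporter best known from neurons. It was the least abundant of the 3 transporters, with 1.85, 1.77, 2.42 and 2.43 FPKM at 0 d and 0.613, 0.957, 0.916 and 0.924 at 3 d. The 3 d group lay below every sample of every other group. It fell at 3 d by limma, with a log2 change of -0.75 ± 0.12 (adjusted p = 7.66e-06), and ranged from 1.19 to 2.49 FPKM between 5 and 28 d. Its changes of -0.37 ± 0.12 (adjusted p = 0.0152) at 21 d and -0.34 ± 0.12 (adjusted p = 0.0225) at 28 d were under 1.5-fold as deposited, while at 28 d median-ratio scaling gave -0.59 and quantile normalization -0.63, both past it, as was the quantile value of -0.59 at 21 d.

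**Figure D1:**
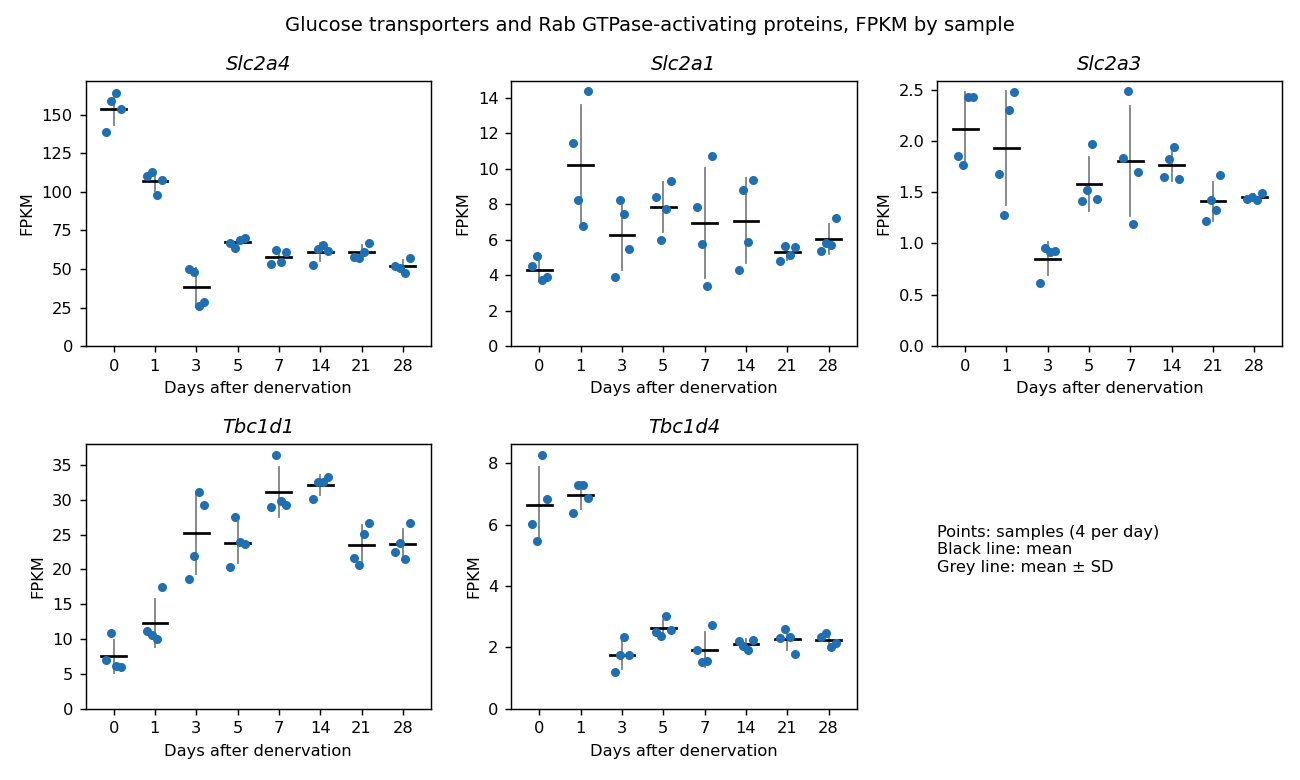
FPKM (vertical axis, from 0) of Slc2a4, Slc2a1, Slc2a3, Tbc1d1 and Tbc1d4 against days after denervation, with a point for each of 4 samples per time, a black line for the mean and a grey line for the mean ± SD. Slc2a4 drops to 38.1 ± 12.7 at 3 d and stays below every 0 d sample, Tbc1d1 climbs to 32.1 ± 1.39 at 14 d, and Tbc1d4 falls between 1 and 3 d.

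Tbc1d1 (ENSMUSG00000029174, chromosome 5, 64156305 to 64351486, plus strand) encodes the Rab GTPase-activating protein that AMPK phosphorylates during contraction. Its FPKM was 7.03, 10.9, 6.14 and 5.98 at 0 d, 11.1, 10.5, 9.998 and 17.4 at 1 d and 18.6, 22.0, 31.1 and 29.3 at 3 d. The second 0 d library lay within the 1 d range, and from 3 d on every sample was above all 0 d samples. It was 20.4, 27.5, 23.9 and 23.6 at 5 d, 28.9, 36.5, 29.9 and 29.3 at 7 d and 30.1, 32.5, 32.5 and 33.3 at 14 d. At 21 d it was 21.7, 20.7, 25.0 and 26.7 and at 28 d 22.5, 23.7, 21.6 and 26.6. The mean went from 7.51 ± 2.30 to 32.1 ± 1.39 (SD, n = 4) at 14 d, and limma gave a log2 change of 1.99 ± 0.16 (adjusted p = 2.74e-11) at that time and 1.70 ± 0.11 (adjusted p = 1.67e-09) at 14 to 28 d. The change at 1 d, 0.64 ± 0.16 (adjusted p = 0.00244), was called as deposited but fell under 1.5-fold after median-ratio scaling (0.48), after quantile normalization (0.47) and without the fourth 1 d library (0.48), the third 0 d library (0.57) or the fourth 0 d library (0.56).

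Tbc1d4 (ENSMUSG00000033083, chromosome 14, 101442360 to 101609191, minus strand), also named AS160, is the paralogous protein that Akt phosphorylates after insulin. It had 6.03, 5.47, 8.29 and 6.83 FPKM at 0 d and 6.37, 7.29, 7.30 and 6.88 at 1 d. By 3 d it was 1.21, 1.77, 2.33 and 1.75, so that no sample reached the lowest 0 d value. It was 2.52, 2.36, 3.03 and 2.57 at 5 d, 1.92, 1.51, 1.55 and 2.74 at 7 d and 2.21, 2.03, 1.93 and 2.26 at 14 d. It was 2.30, 2.59, 2.35 and 1.80 at 21 d and 2.34, 2.48, 2.02 and 2.13 at 28 d. All 24 samples from 3 d on lay below the 0 d and the 1 d groups, and these 6 groups overlapped with their neighbours in the order of means. Tbc1d4 fell by limma, with log2 changes of -1.47 ± 0.12 (adjusted p = 2.72e-11) at 3 d and -1.25 ± 0.08 (adjusted p = 2.38e-09) at 14 to 28 d, whereas at 1 d its change was 0.07 ± 0.12 (adjusted p = 0.759), which turned to -0.10 after median-ratio scaling and -0.12 after quantile normalization.

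A ratio of 2 genes within a sample does not move with the scaling between samples, and FPKM is per length, so each pair was also set side by side. The ratio of Slc2a1 to Slc2a4 FPKM was 0.0324, 0.0321, 0.0227 and 0.0252 at 0 d, 0.104, 0.0728, 0.0688 and 0.133 at 1 d and 0.0781, 0.170, 0.291 and 0.191 at 3 d. Slc2a4 thus stood 30.9 to 44.1 times above Slc2a1 at 0 d and 3.44 to 12.8 times above it at 3 d. The ratio was 0.0281 ± 0.00492 (SD, n = 4) at 0 d and 0.116 ± 0.0101 at 28 d, and at each of the 7 later times every sample exceeded every 0 d sample (exact two-sided permutation p = 0.0286 each, the smallest that 4 against 4 samples allow, adjusted p = 0.0308 over 14 comparisons).

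The balance between the Rab GTPase-activating proteins moved as well. The ratio of Tbc1d1 to Tbc1d4 FPKM was 1.17, 1.99, 0.741 and 0.876 at 0 d and 1.75, 1.45, 1.37 and 2.53 at 1 d, and these groups overlapped (exact permutation p = 0.143). It was 15.4, 12.4, 13.3 and 16.7 at 3 d and 9.61, 9.57, 10.7 and 12.5 at 28 d. The 2 transcripts were near parity before denervation, and from 3 d on Tbc1d1 exceeded Tbc1d4 by 7.90 to 24.1 times in each sample, above all 0 d ratios at each of these 6 times (exact permutation p = 0.0286 each, adjusted p = 0.0308).

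**Figure D2:**
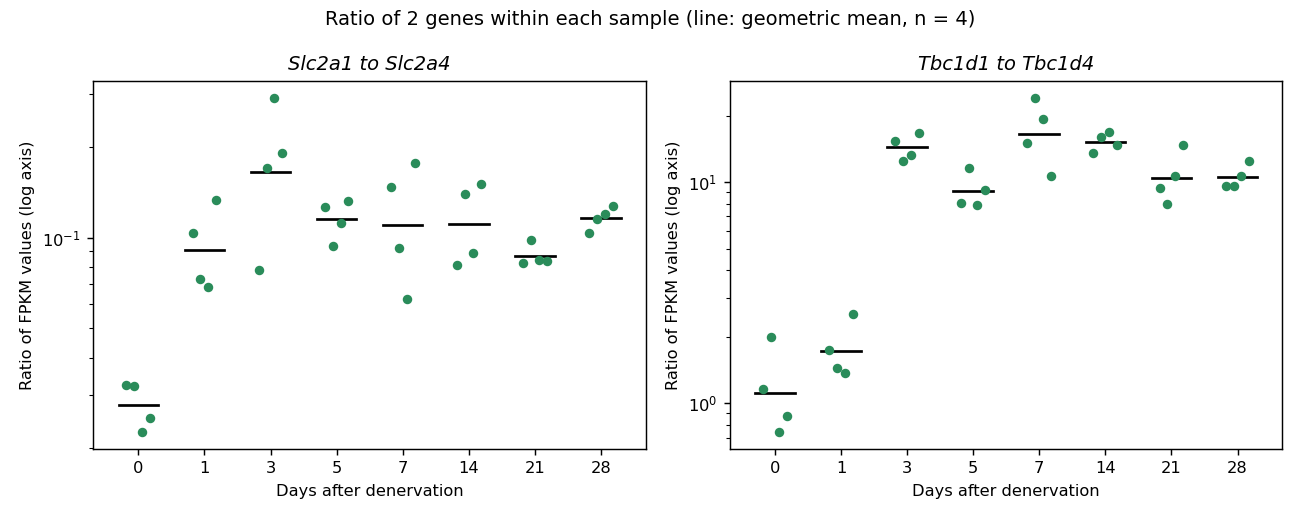
Ratio of FPKM values within each sample (log axis) against days after denervation for Slc2a1 to Slc2a4 and Tbc1d1 to Tbc1d4, with a point per sample and a line for the geometric mean of 4. The first ratio exceeds its 0 d values at each later time, and the second steps from 1.77 ± 0.531 at 1 d to 14.5 ± 1.94 at 3 d (mean ± SD).

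Txnip (ENSMUSG00000038393, chromosome 3, 96557957 to 96561883, plus strand) and Arrdc4 (ENSMUSG00000042659, chromosome 7, 68736995 to 68749241, minus strand) are the glucose-responsive arrestins, and the 250 bases before their starts are shown because the regulation of both genes by Mlxip is known to run through E-box-like elements there. The sequences are from RefSeq on GRCm38.p6, 5′ to 3′ on the strand of the gene, at chr3:96557707-96557956 for Txnip and chr7:68749239-68749488 for Arrdc4, and capitals mark matches on either strand to CACGNG (which includes CACGTG), to CCAAT, the NF-Y box, or to GTAAACA, a forkhead motif.
Txnip: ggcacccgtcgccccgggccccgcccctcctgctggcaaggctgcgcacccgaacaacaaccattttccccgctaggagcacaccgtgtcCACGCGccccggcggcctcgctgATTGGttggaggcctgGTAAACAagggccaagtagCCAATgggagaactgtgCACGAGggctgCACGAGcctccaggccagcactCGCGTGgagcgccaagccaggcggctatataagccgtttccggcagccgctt
Arrdc4: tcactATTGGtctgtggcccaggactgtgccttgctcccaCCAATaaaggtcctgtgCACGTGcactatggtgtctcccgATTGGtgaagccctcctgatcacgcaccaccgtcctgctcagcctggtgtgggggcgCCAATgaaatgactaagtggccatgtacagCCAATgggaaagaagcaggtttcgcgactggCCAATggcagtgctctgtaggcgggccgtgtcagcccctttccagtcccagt
Windows of this kind were found for 8 of the 10 genes, not for Slc2a4 and Slc2a3. Txnip held 4 matches to CACGNG, starting 160, 85, 74 and 52 bases before the start, and the middle pair stands as 2 copies with 5 bases between them, an arrangement that 15 of 32851 windows (0.0457%) held. Arrdc4 held 1 match to CACGTG, 193 bases before its start, a motif in 6.02% of all windows, and 6 to CCAAT, a motif in 33.8%. CACGNG was in 23.5% of windows, among them 1 match each in Arrdc2 and in 1 of the Tbc1d1 windows, and GTAAACA, in 3.17%, was 121 bases before the start of Txnip. These are matches of letters and no measurement of binding.

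Txnip was abundant in nondenervated muscle and did not fall at once. Its FPKM was 175, 186, 171 and 167.1 at 0 d and 214, 225, 214 and 223 at 1 d, when all 4 samples lay above every 0 d sample. It was 124, 166.8, 125 and 111 at 3 d, 54.2, 49.4, 65.3 and 68.2 at 5 d and 66.7, 61.3, 38.0 and 56.5 at 7 d. All 24 samples from 3 d on lay below every 0 d sample, the highest of them, the second 3 d library, by a narrow margin. It was 81.2, 88.8, 85.4 and 92.7 at 14 d and 84.1, 80.7, 72.6 and 78.3 at 21 d. At 28 d it was 141, 119.8, 59.3 and 66.9, with the first pair of libraries above all 14 and 21 d samples and the other pair below them. Means (SD, n = 4) were 175 ± 8.32 at 0 d, 219 ± 5.94 at 1 d, 55.6 ± 12.5 at 7 d (31.8% of 0 d) and 96.8 ± 40.0 at 28 d (55.3%). In the order of means, 1 d, 0 d and 3 d were separate, then 3, 28, 14 and 21 d followed with each overlapping its neighbour, and 5 and 7 d were lowest and overlapped with each other. The antisense gene Gm15441 overlaps Txnip over 606 exonic bases and held 1 to 20 fragments per sample, against 1992 to 11508 for Txnip.

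Arrdc4 followed the early rise of Txnip but not its fall below 0 d. Its FPKM was 3.15, 3.73, 3.83 and 3.37 at 0 d, 5.77, 5.23, 6.08 and 5.89 at 1 d and 4.38, 5.98, 5.34 and 4.99 at 3 d. All samples at 1 and 3 d exceeded all at 0 d. Its log2 change was 0.58 ± 0.14 (adjusted p = 0.00129) at 1 d, just under 1.5-fold as deposited and past it with values rescaled to TPM (0.76) or a pseudocount of 0.1 (0.69), and 0.45 ± 0.14 (adjusted p = 0.00797) at 3 d by limma, which TPM also moved past it (0.66). Leaving out the second or the third 0 d library or the second 1 d library gave 0.60 to 0.62 at 1 d, past 1.5-fold. From 5 to 21 d it ranged from 2.49 to 4.18 FPKM, and at 28 d it was 5.00, 4.97, 2.99 and 2.85, split in the same way as Txnip. At 14 to 28 d its change was 0.06 ± 0.12 (adjusted p = 0.661), which was -0.22 after median-ratio scaling and -0.23 after quantile normalization.

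Arrdc2 (ENSMUSG00000002910, chromosome 8, 70835129 to 70839720, minus strand), an alpha-arrestin thought to link membrane proteins to ubiquitin ligases, rose and then fell below its 0 d level. Its FPKM was 2.47, 2.24, 2.49 and 2.69 at 0 d, 4.64, 5.77, 8.54 and 13.6 at 1 d and 3.53, 6.05, 9.75 and 8.12 at 3 d. The 8 samples at 1 and 3 d were above all 0 d samples, and the 20 later samples were below them. It was 1.38, 1.33, 1.81 and 1.52 at 5 d, 1.31, 1.51, 0.737 and 0.837 at 7 d and 0.828, 1.03, 1.04 and 0.894 at 14 d. It was 0.675, 0.743, 0.815 and 0.482 at 21 d and 1.07, 0.773, 0.842 and 1.01 at 28 d. By limma the log2 change was 1.30 ± 0.21 (adjusted p = 1.55e-05) at 1 d, 1.11 ± 0.21 (adjusted p = 7.06e-05) at 3 d and -0.91 ± 0.06 (adjusted p = 3.01e-09) at 14 to 28 d. The change at 5 d, -0.47 ± 0.21 (adjusted p = 0.0705), missed both limits as deposited and passed them after median-ratio scaling (-0.74), after quantile normalization (-0.73) and with a pseudocount of 0.1 (-0.68).

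Arrdc3 (ENSMUSG00000074794, chromosome 13, 80883384 to 80896042, plus strand), an alpha-arrestin known for regulating beta-adrenergic receptors, had the largest early rise of the 10 genes. Its FPKM was 8.09, 8.31, 9.27 and 7.58 at 0 d, 20.3, 22.7, 36.03 and 47.0 at 1 d and 45.0, 32.8, 62.0 and 61.5 at 3 d. The lowest denervated sample of all 28 lay above the highest 0 d sample. It was 47.4, 50.9, 53.0 and 44.0 at 5 d, 33.8, 45.0, 30.3 and 28.2 at 7 d and 24.8, 25.1, 25.3 and 22.4 at 14 d. It was 19.8, 19.1, 20.0 and 18.8 at 21 d and 21.4, 23.3, 18.8 and 20.0 at 28 d. The mean rose from 8.31 ± 0.709 (SD, n = 4) to 50.3 ± 14.1 at 3 d and then came down to 19.4 ± 0.564 at 21 d. The log2 change by limma was 2.42 ± 0.19 (adjusted p = 8.79e-12) at 3 d, 2.42 ± 0.19 (adjusted p = 1.15e-11) at 5 d and 1.27 ± 0.05 (adjusted p = 1.35e-11) at 14 to 28 d.

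Mlxip (ENSMUSG00000038342, chromosome 5, 123394798 to 123457932, plus strand), which encodes the glucose-sensing transcription factor MondoA, stayed within 1.5-fold of its 0 d level at every time as deposited. Its FPKM was 8.88, 9.86, 11.8 and 9.96 at 0 d and 13.9, 13.7, 14.4 and 14.5 at 1 d, and no 1 d sample overlapped with 0 d. It was 7.69, 7.99, 9.24 and 8.42 at 21 d and 8.35, 9.37, 7.00 and 8.52 at 28 d, and 9.68 to 12.6 between 3 and 14 d. Its log2 change was 0.45 ± 0.08 (adjusted p = 8.48e-05) at 1 d and -0.26 ± 0.08 (adjusted p = 0.0107) at 28 d, both under 1.5-fold as deposited, with -0.61 at 28 d after median-ratio scaling. The antisense gene Gm15747 overlaps it over 267 exonic bases and held 0 to 2 fragments per sample.

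**Figure D3:**
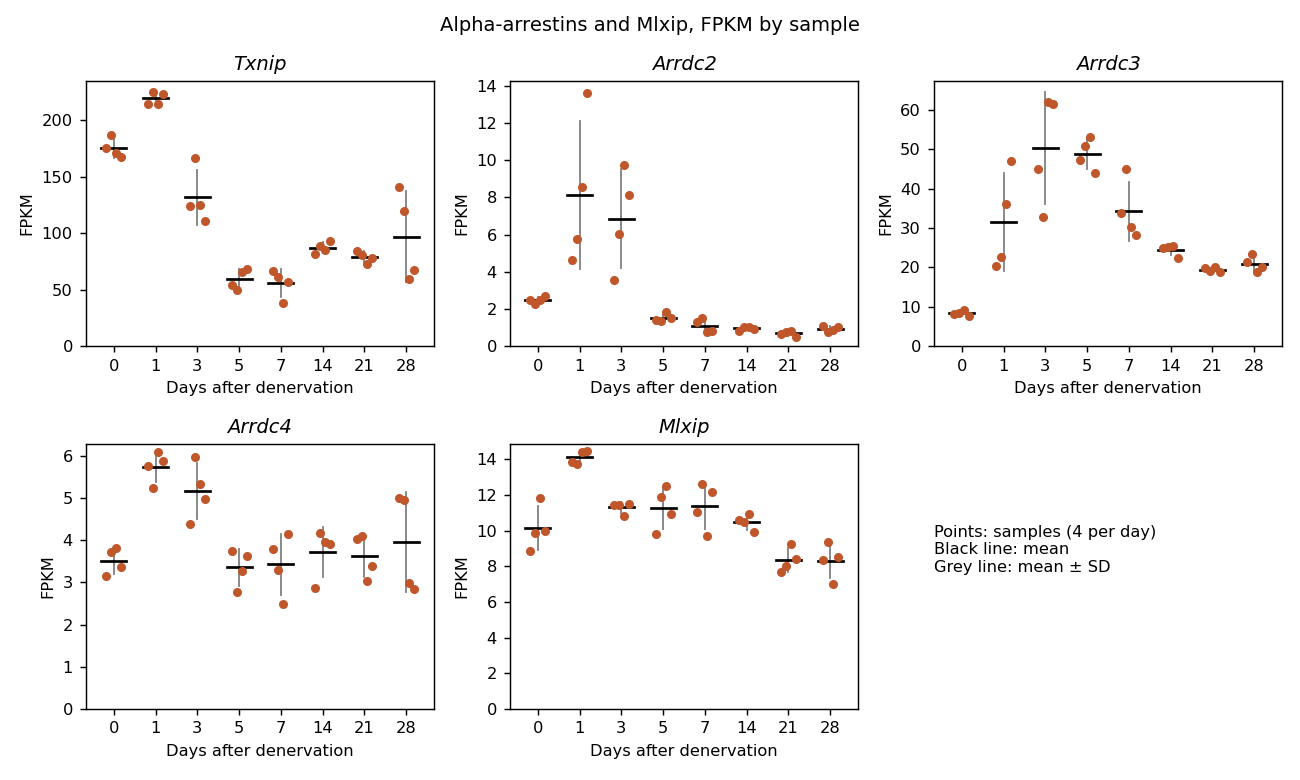
FPKM (vertical axis, from 0) of Txnip, Arrdc2, Arrdc3, Arrdc4 and Mlxip against days after denervation, with a point for each of 4 samples per time, a black line for the mean and a grey line for the mean ± SD. Txnip peaks at 219 ± 5.94 at 1 d and is lowest at 5 and 7 d, Arrdc2 peaks at 1 and 3 d, and Arrdc3 peaks at 3 and 5 d.

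The steps between times were tested in the same limma fit. From 1 to 3 d, 5 of 9 tested genes were called (10.6% of all genes, 6.63% higher and 3.93% lower): Slc2a4 (-1.53), Tbc1d4 (-1.54) and Slc2a3 (-0.65) fell, and Tbc1d1 (0.99) and Arrdc3 (0.69) rose. The Arrdc3 step fell under 1.5-fold after quantile normalization (0.48) and without the first (0.52) or the second (0.57) 1 d library or the third (0.58) or the fourth (0.58) 3 d library, and the Slc2a3 step without the third (-0.58) or the fourth (-0.56) 1 d library or the first 3 d library (-0.58), which left 4 genes called. From 3 to 7 d, 2 were called (7.69% of all genes, 5.08% higher and 2.61% lower), with Arrdc2 down by -1.85 ± 0.21 (adjusted p = 8.6e-08) and Slc2a4 up by 0.65 ± 0.13 (adjusted p = 0.00041). The partial return of Slc2a4 fell under 1.5-fold after median-ratio scaling (0.50) and without the third (0.48) or the fourth (0.53) 3 d library. From 7 to 28 d only Arrdc3 was called among the 9 (2.96% of all genes, 1.5% higher and 1.46% lower), at -0.67 ± 0.19 (adjusted p = 0.0141), and not without the second 7 d library (-0.54, adjusted p = 0.0781).

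**Figure D4:**
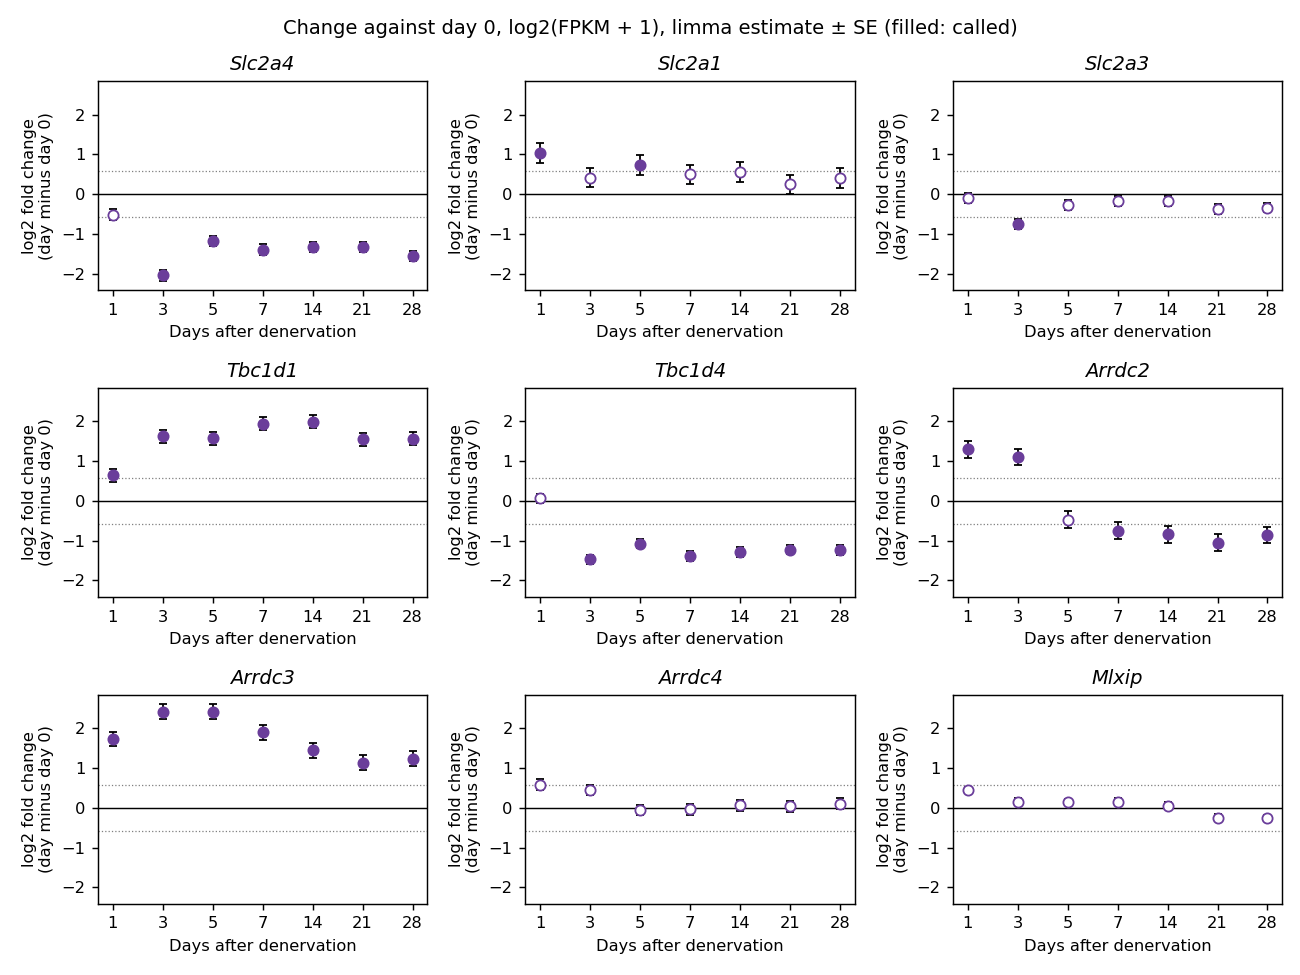
Log2 fold change against 0 d (vertical axis, limma estimate ± SE on log2(FPKM + 1)) by days after denervation for the 9 tested genes. Filled points were called, open points were not, and dotted lines mark 1.5-fold. Slc2a4 and Tbc1d4 stay below 0 from 3 d on, Tbc1d1 and Arrdc3 stay above it, and Arrdc2 crosses it between 3 and 5 d.

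Other genes of glucose uptake were read from lists, with the counts at 14 to 28 d set beside a median change of 0.15 over all genes tested, of which 14.5% were called higher and 4.27% lower. Over the 11943 genes whose FPKM averaged 1 or more the median was 0.28, and 0.01 after median-ratio scaling. With that scaling 3066 of the 20243 genes tested were called, 46.2% of them higher. Of 7 tested hexose transporters outside the 3 above, 0 were called higher and 1 lower, with a median of 0.15 (-0.005 after median-ratio scaling). That 1 was Slc2a12, which encodes the transporter GLUT12 and fell by 0.62 (-0.89 after median-ratio scaling). Of 4 tested hexokinase genes 0 were called higher and 1 lower, with a median of -0.20. After median-ratio scaling 0 were higher and 2 lower, with a median of -0.51. Among them Hk3, found in leukocytes, had a change of 0.45 and was not called.

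Along the insulin pathway to GLUT4, 4 of 17 genes were called higher and 2 lower, with a median of 0.31, which was -0.01 after median-ratio scaling. Akt2, the kinase that phosphorylates Tbc1d4, rose by 1.19, and Rab13, a Rab protein of GLUT4 vesicles in muscle cells, by 1.57. Irs1, the insulin receptor substrate, was called higher at 1 d (1.06) and lower at 14 to 28 d (-0.91). Akt1 rose by 0.74 and Rab8a by 0.59, which were 0.39 and 0.29, under 1.5-fold, after median-ratio scaling, and with that scaling 2 of the 17 genes were called higher and 2 lower. Of 16 genes of GLUT4 vesicle traffic, 3 were called higher and 0 lower, with a median of 0.47 (0.15 after median-ratio scaling). These were Sort1 (0.89), encoding the vesicle-forming receptor sortilin, Lnpep (0.67), encoding the vesicle peptidase IRAP, and Myo5a (0.59), encoding a myosin motor, and all 3 were under 1.5-fold after median-ratio scaling (0.55, 0.33 and 0.34). The SNARE gene Stx4a stood at 0.58 and was not called.

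In the AMPK and contraction list 5 of 15 genes were called higher and 3 lower, with a median of 0.00, which was -0.35 after median-ratio scaling. Camk2a, a calcium-dependent kinase, fell by 2.70 and Prkaa2, the main AMPK catalytic subunit of muscle, by 1.57. Camk2d, another isoform of the kinase, rose by 1.31 and Prkaa1, the other AMPK catalytic subunit, by 0.85. After median-ratio scaling 1 of the 15 was called higher and 4 lower: Camk2d stayed past 1.5-fold (1.03), and Prkaa1 (0.53), Prkag3 (0.45), Prkab1 (0.36) and Camk2b (0.31) did not. Among 10 tested regulators of Slc2a4 transcription 2 were called higher and 3 lower, with a median of 0.01. After median-ratio scaling 2 were higher and 4 lower, with a median of -0.34. Mef2a, a factor that binds the Slc2a4 promoter, rose by 1.64 and the myogenic factor Myod1 by 3.27, while the nuclear receptors Esrra (-0.97) and Thra (-0.77) fell.

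The genes around Txnip moved in both directions. Of 14 partners of alpha-arrestins 4 were called higher and 1 lower, with a median of 0.27. After median-ratio scaling 2 were higher and 1 lower, with a median of -0.04. Txn1, the thioredoxin that Txnip binds, had a mean of 44.7 FPKM at 0 d and 213 at 7 d, and its change was 1.55 ± 0.05 at 14 to 28 d (limma adjusted p = 8.87e-13). Arrdc1, an alpha-arrestin of budding vesicles, rose by 1.38. The ubiquitin ligase genes Nedd4 and Wwp1, whose products bind alpha-arrestins, had changes of 0.86 (0.51 after median-ratio scaling) and -0.92. In the Mlx and Max network 1 of 10 was called higher and 1 lower, with a median of 0.20 (-0.05 after median-ratio scaling). These were Myc (1.24) and Mlxipl (-0.64), which encodes ChREBP, the relative of MondoA.

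Across the 32 samples, which share their days, the Txnip level ran close to that of Sun2 (Pearson r = 0.912 on log2(FPKM + 1)), Clic5 (0.899), Ech1 (0.889) and Ptpn4 (0.887), among 11943 genes ranked. For Slc2a4 the closest were Mpst (0.940), Myoz3 (0.938), Cib2 (0.933), Pfkfb1 (0.928) and Cs (0.928). Both lists describe likeness of level over the same samples and no test was made.

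Txnip and Arrdc4 also varied together among samples of the same day. With the mean of each day taken out, their r was 0.793 over 32 samples, and that of Arrdc2 and Arrdc3 was 0.767. Both pairs stood highest among all pairs of the 10 genes, on a measure chosen after the data were seen. With the days kept in, r was 0.706 for Txnip and Arrdc4 and 0.303 for Arrdc2 and Arrdc3. For Txnip and Arrdc2 r was 0.701 with the days kept in and 0.112 with the day means taken out, and for Txnip and Arrdc3 it was -0.333 and 0.0114. With the day means taken out, r between Txnip and Arrdc4 was 0.647 without the 28 d libraries. For Arrdc2 and Arrdc3 no day was left out, and their 1 d samples spread widely (4.64 to 13.6 and 20.3 to 47.0 FPKM).

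**Figure D5:**
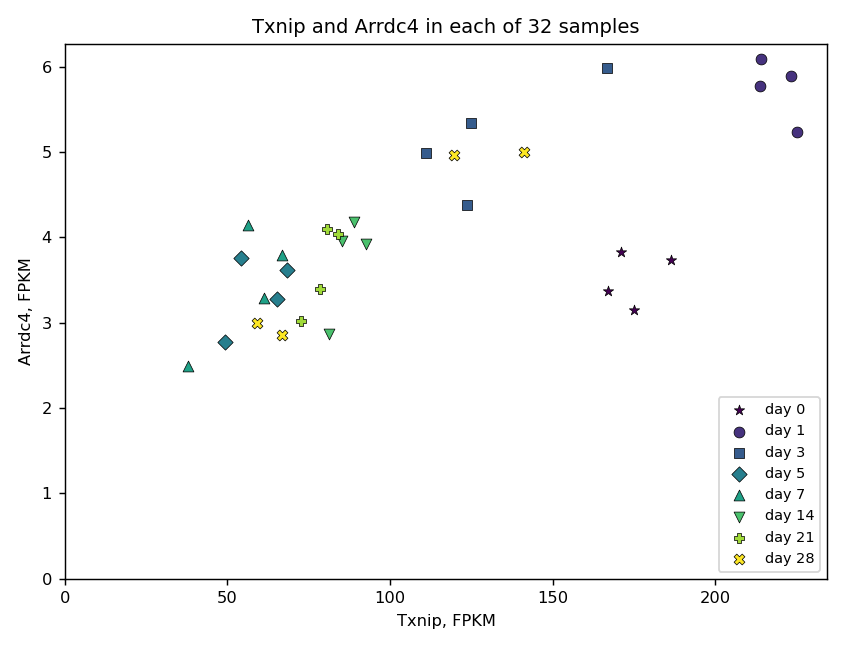
Arrdc4 FPKM (vertical axis) against Txnip FPKM (horizontal axis) in each of the 32 samples, with marker and colour giving the day. The 0 d samples sit at high Txnip (167 to 186) with Arrdc4 under 4, the 1 d samples are highest for Txnip, and the 28 d samples split into a pair with Arrdc4 near 5 and a pair near 3.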

How the data were processed

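The authors deposited FPKM values for 33397 mouse genes in 32 samples. Per the labels, total RNA went through an Illumina TruSeq kit, whereas the methods of the study name a VAHTS Universal library kit. The submitters' processing notes name CASAVA, HISAT2 2.1.0, DESeq2 and the build GRCm38. The counter, the annotation and the strand setting are not given in the sources used here. Symbols and positions were matched to GENCODE M21 for 33356 genes (99.88%), and FPKM multiplied by merged exon length gave whole fragments within 0.02 for 99.26% to 99.34% of values under 200 fragments, so depth per sample could be recovered (median 16663160).

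Groups followed the day in the labels. Genes with FPKM of at least 0.1 in 4 samples were tested with limma 3.58.1 (R 4.3.3, empirical Bayes with trended variance) on log2(FPKM + 1) over all 32 samples, with 14 to 28 d against 0 d in its own 16-sample fit and Benjamini-Hochberg adjustment over all genes. Replicates are numbered in the order of the columns, as names only. Ratios were tested by exact permutation (scipy 1.17.1), with Python 3.11.15, numpy 2.4.6, pandas 2.3.3 and matplotlib 3.10.9. Replicate pairs correlated at 0.961 or more, and none agreed within sampling noise (chi-square per degree of freedom at least 3.76). The limma script was tested on simulated data.

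The genes and the pathway and marker lists were chosen with earlier results of these data known. The genes named from a list were up to 4 with the largest change at 14 to 28 d among those called in 1 direction on at least 3 of the 7 days, and the 5 genes most like Txnip or Slc2a4 by Pearson r. Some genes that this rule picks are not reported here. Alternatives were a pseudocount of 0.1, a filter of FPKM 1, no filter, median-ratio scaling, quantile normalization, TPM, limma-voom, no variance trend, no fold limit, only the groups compared and each library left out. No deposited comparison was used.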

Additional observations from a re-analysis of the deposited data

Results flagged for a closer look

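Some single libraries lay far from the other 3 of their group, by Dixon's criterion for 4 values. Slc2a3 at 3 d was 0.613 FPKM in the first library, against 0.916 to 0.957 in the others. Tbc1d1 at 1 d was 17.4 FPKM in the fourth library, against 9.998 to 11.1, and at 7 d it was 36.5 FPKM in the second library, against 28.9 to 29.9. Mlxip at 3 d was 10.8 FPKM in the third library, against 11.46 to 11.50. These are 4 of 80 groups examined, and chance gives about 4.

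Between times, tested steps differed in the limma fit. From 1 to 3 d the log2 change was -1.53 for Slc2a4, -0.65 for Slc2a3, 0.99 for Tbc1d1, -1.54 for Tbc1d4 and 0.69 for Arrdc3. From 3 to 7 d it was 0.65 for Slc2a4 and -1.85 for Arrdc2, and from 7 to 28 d it was -0.67 for Arrdc3.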

How the results depend on the processing

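No paired analysis was possible because the columns of the table carry no replicate numbers that match a sample label, so a replicate block could not be fitted. Of 80 single-gene values, 63 kept their direction and their side of the limits after median-ratio scaling, 65 after quantile normalization, 72 rescaled to TPM and 78 with a pseudocount of 0.1. All 80 did so with the other filter, with no filter and with no variance trend. The number of genes called at 1 d was 7 with no fold limit. From 3 to 7 d it was 4 with a pseudocount of 0.1, 1 with only the samples of the groups compared, 4 with limma-voom on recovered fragments, 5 with no fold limit and 2 to 4 leaving out single libraries, the highest without the second 3 d library. From 7 to 28 d it was 2 with no fold limit and 0 to 1 leaving out single libraries, the lowest without the second 7 d library. The setting with only the groups compared has no separate value at 14 to 28 d, and pairing by replicate was not run.

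The values that changed sign were all at times when the gene was not called as deposited. After median-ratio scaling these were Tbc1d4 at 1 d (-0.095), Mlxip at 3, 5, 7 and 14 d (-0.062, -0.21, -0.20 and -0.31), Slc2a1 at 21 d (-0.0034) and Arrdc4 at 14, 21, 28 d and 14 to 28 d (-0.26, -0.21, -0.20 and -0.22). After quantile normalization they were Tbc1d4 at 1 d (-0.12), Mlxip at 3, 5, 7 and 14 d (-0.13, -0.20, -0.19 and -0.28) and Arrdc4 at 14, 21, 28 d and 14 to 28 d (-0.26, -0.21, -0.21 and -0.23). Rescaled to TPM they were Arrdc4 at 5 and 7 d (0.11 and 0.13) and Mlxip at 14 to 28 d (0.0054). Leaving out single libraries gave -0.19 to 0.015 for Slc2a3 at 1 d, -0.0080 to 0.17 for Tbc1d4 at 1 d, -0.099 to 0.012 for Arrdc4 at 5 d, -0.12 to 0.068 at 7 d and -0.015 to 0.099 at 21 d, and -0.0046 to 0.12 for Mlxip at 14 d. Every ratio kept its direction with a pseudocount of 1 on both values and without each single library. The cause of these changes was not tested. Slc2a1, Slc2a3, Tbc1d4, Arrdc2 and Arrdc4 had under 10 FPKM in most samples, where the added 1 understates folds, and FPKM shares a total between genes, so a shift common to many genes cannot be told apart from scaling.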

Other observations

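When day means were removed, a measure chosen after the data were seen, the genes that ran closest to Txnip were Klf11 (r = 0.826), Angptl4 (0.826), Klf10 (0.824), Pdk4 (0.794) and Arrdc4 (0.793), among 11942 genes. Pdk4 encodes a kinase that holds back glucose oxidation, Angptl4 a secreted inhibitor of lipoprotein lipase, and Klf10 and Klf11 related transcription factors. Without the 28 d libraries these values were 0.657 for Klf11, 0.651 for Angptl4, 0.632 for Klf10, 0.553 for Pdk4 and 0.647 for Arrdc4.

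The 28 d libraries split for each of these genes. Pdk4 was at 270.3, 254, 123 and 129.8 FPKM in the 4 libraries, in the order used for Txnip above. Angptl4 was at 8.14, 7.24, 1.67 and 1.74 FPKM, Klf10 at 12.1, 11.4, 5.51 and 6.40 and Klf11 at 4.28, 4.28, 1.59 and 2.31. These genes were picked by a measure that this split carries in part, so the split in them is no separate finding. No label tells these libraries apart.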
